A study of Mus musculus with 6 samples.

Results

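The 10 genes described here are those of BMP signalling in mouse embryonic stem cells (ESCs): the ligand *Bmp4*, its receptor *Bmpr1a*, the receptor-regulated SMADs *Smad1* and *Smad5*, the inhibitory SMADs *Smad6* and *Smad7*, and the target genes *Id1*, *Id2*, *Id3* and *Id4*. They were picked by symbol, with earlier results of these data known, and all 10 were among the 23420 gene symbols of the count files. RNA was sequenced from E14 ESCs of 2 genotypes, wild type (WT) and *Patz1* -/- (KO), with 3 libraries each. The study examined the zinc finger protein PATZ1 at chromatin boundaries, and this comparison asked how expression differed without it. Both genotypes were grown alike, with LIF and with inhibitors of MEK and GSK3. The KO was made with CRISPR/Cas9 in the WT line, and lines were raised from single clones. The sources used here do not name the clone or clones behind the 3 KO libraries, so a property of a clone and the loss of PATZ1 cannot be told apart. The study describes the 3 libraries of a genotype as biological replicates, a term its methods explain for differentiation experiments run independently, and p-values measure the spread between them.

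BMP4 is a secreted ligand that brings type I receptors such as BMPR1A together with type II receptors. The active receptor phosphorylates SMAD1 and SMAD5, which enter the nucleus with SMAD4 and switch on target genes, the *Id* genes first among them. ID proteins bind the E proteins, basic helix-loop-helix factors, and keep them off DNA. SMAD6 and SMAD7 are themselves induced by the pathway and restrain it. In mouse ESCs, BMP4 is best known for acting with LIF to hold back neural differentiation, an effect that runs through the *Id* genes.

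The bases upstream of the start sites are shown for both receptor-regulated SMADs, of which only *Smad1* passed the test, for the ligand *Bmp4*, and for *Id4*, which holds one of the searched runs. The windows of *Bmpr1a*, *Id2* and *Id3* lie within the annotated gene and are not shown, nor is that of *Smad6*, which holds neither run. *Smad5* has 3 start sites in the table, and the bases before the first are shown. Sequences are from RefSeq (GRCm38.p6, the same coordinates as mm10), read 5′ to 3′ on the strand of the gene, and end at the start site or, for *Smad1*, where the GENCODE M21 gene begins. Capitals mark a match to GGGAGGG, a G-rich run like those bound by MAZ, or to GGCGCC, the GC part of the BMP response element, on either strand.
Smad1, chr8:79399519-79399678, minus strand: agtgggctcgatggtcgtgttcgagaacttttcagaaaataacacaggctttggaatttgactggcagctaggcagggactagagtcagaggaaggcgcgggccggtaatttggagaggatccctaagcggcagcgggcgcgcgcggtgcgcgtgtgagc
Smad5, chr13:56702760-56703009, plus strand: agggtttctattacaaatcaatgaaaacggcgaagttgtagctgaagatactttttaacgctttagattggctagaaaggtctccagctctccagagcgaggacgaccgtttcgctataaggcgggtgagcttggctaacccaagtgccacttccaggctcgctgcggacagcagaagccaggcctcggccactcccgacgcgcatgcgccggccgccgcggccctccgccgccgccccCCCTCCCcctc
Bmp4, chr14:46390670-46390919, minus strand: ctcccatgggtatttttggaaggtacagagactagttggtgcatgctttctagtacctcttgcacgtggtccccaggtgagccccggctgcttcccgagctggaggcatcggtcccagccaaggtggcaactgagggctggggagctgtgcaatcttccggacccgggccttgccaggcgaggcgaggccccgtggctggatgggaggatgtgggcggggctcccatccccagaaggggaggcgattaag
Id4, chr13:48260866-48261115, plus strand: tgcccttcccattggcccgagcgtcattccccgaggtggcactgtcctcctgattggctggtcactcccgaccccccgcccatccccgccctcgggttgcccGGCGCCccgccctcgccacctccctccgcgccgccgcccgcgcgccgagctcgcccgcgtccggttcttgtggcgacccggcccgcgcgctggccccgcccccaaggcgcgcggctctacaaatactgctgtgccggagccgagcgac
RefSeq windows of 300 bases, from 250 before to 50 after the start, were matched for 8 of the 10 genes, all but *Id1* and *Smad7*. GGGAGGG lay in a window of 3 of them (*Bmp4*, *Bmpr1a* and *Smad5*), against 23.8% of all 27025 genes in the table with a window that holds it and 22.0% of all 32851 windows. GGCGCC lay in a window of 4 (*Bmpr1a*, *Smad5*, *Id2* and *Id4*), against 13.4% of genes and 11.9% of windows. The *Smad1* window held neither run. The *Bmp4* match and the *Smad5* GGCGCC match fell after the first start, and the window of the third *Smad5* start holds a further GGGAGGG match; these are not shown. The windows of the 8 genes were rich in G and C, from 60.0% to 79.3%, with a median of 52.7% over all windows. A match is a run of letters and not a known site.

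The libraries held between 11040756 and 47721070 counts, and replicate 3 was the shallow one in both genotypes, with 12.5% and 14.4% of its counts on the ribosomal precursor *Rn45s* against 1.79% to 3.03% elsewhere. *Patz1*, the targeted gene, was lower in each KO library, at 45.5% of the WT mean (log2 fold change -1.14, SE 0.10, adjusted p 1.57e-26). It lies on chromosome 11, where the median log2 fold change of 915 genes was -0.26. Of 15264 genes tested, 1145 passed an adjusted p of 0.05 (7.50%), 414 of them higher in KO (2.71%) and 731 lower (4.79%). Each of 8 ESC markers was expressed in every library, and their summed normalized counts ran from 117323 to 120834 in WT and from 125835 to 129306 in KO. A normalized count is the count over the size factor of its library, which removes differences in depth, and fold changes are KO over WT.

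Of the 10 genes, 2 rose in KO, *Id1* and *Smad1*, and none fell by the test. All 10 were tested, and the 2 risers stand beside 2.71% of all genes tested. The 10 were chosen with earlier results of these data known, so no excess over that share can be read from this. *Id1* rose 1.6-fold and *Smad1* 1.42-fold. *Bmp4*, *Bmpr1a*, *Smad5*, *Smad6*, *Smad7* and *Id2* had fitted fold changes above 0 and *Id3* and *Id4* negative ones, none of which passed. For 4 of the 10 genes no KO library lay within the WT range or the reverse (*Bmpr1a*, *Smad1*, *Smad5* and *Id1*), all higher in KO, where 25.7% of all genes tested did not overlap and 11.9% did so with KO higher. The median log2 fold change was 0.12 over the 10 genes and 0.0087 over all genes tested. On the 18 autosomes other than chromosome 11, medians of genes with a mean of at least 50 ran from 0.00092 to 0.064. Libraries of equal replicate number were taken as pairs, which the sample titles do not state, and the fit above leaves the pairing out. With the replicate number as a block, 4 of the 10 passed, *Id1*, *Smad1* and *Bmp4* higher and *Id3* lower. In that fit 14.7% of all genes tested passed.

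**Figure D1:**
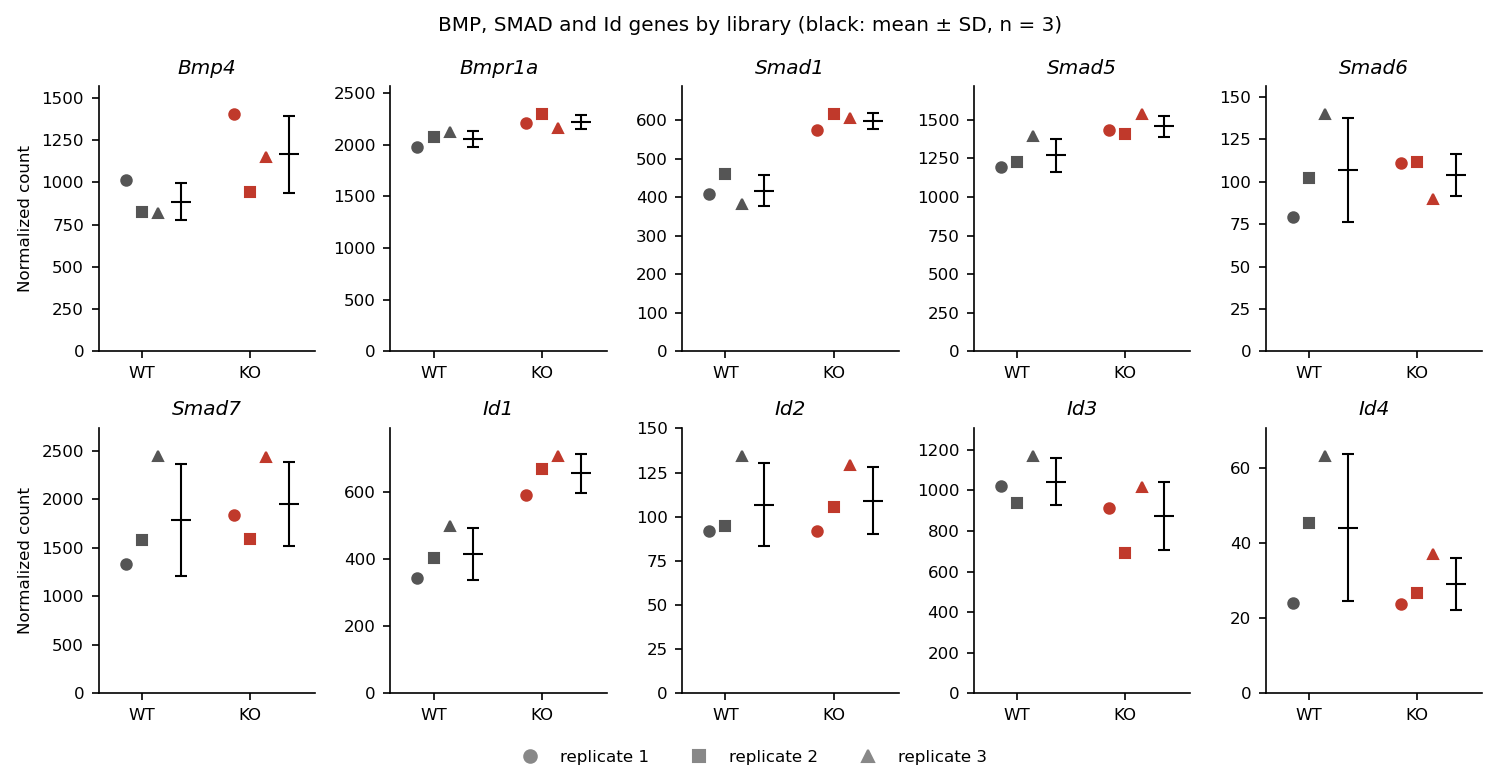
Normalized counts of the 10 genes (y axis, from 0) in each WT (grey) and KO (red) library, with the symbol giving the replicate number and black bars the mean ± SD (n = 3). The 3 KO libraries of *Smad1* (574 to 615) and *Id1* (591 to 706) sit above all WT libraries, while the libraries of the genotypes overlap for *Bmp4*, *Smad6*, *Smad7*, *Id2*, *Id3* and *Id4*.

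The ligand *Bmp4* lies on chromosome 14 (46383520 to 46390669, minus strand). Its level was 1011, 825 and 816 normalized counts in the WT libraries and 1401, 942 and 1149.6 in the KO libraries, in the order of the replicate number. The lowest KO library, replicate 2, was below the highest WT library, replicate 1, so the genotypes overlapped. The WT mean of 884 ± 110.0 and the KO mean of 1164 ± 229 (SD, n = 3 in each genotype) gave a log2 fold change of 0.39 (SE 0.16, 95% interval 0.09 to 0.70), with an adjusted p of 0.110 (DESeq2). In both genotypes replicate 1 was the highest library, and within each pair of equal number KO was higher, by 0.47, 0.19 and 0.49 on the log2 scale. With the replicate block the adjusted p was 0.00143. Leaving out 1 library moved the log2 fold change from 0.23 (KO replicate 1, adjusted p 0.727) to 0.53 (KO replicate 2, adjusted p 0.0279), and *Bmp4* did not pass in the other 11 of the 13 alternatives. *Bmp4* overlaps 2 genes on the opposite strand, *Gm15217* and *Gm15222*, and the use of strand in counting was not given in the sources used here.

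*Bmpr1a*, the type I receptor on chromosome 14 (34410734 to 34503341, minus strand), had 1973, 2073 and 2128 normalized counts in the WT libraries, against 2205, 2293 and 2164 in KO. Every KO library was above every WT library, by a small margin. The log2 fold change of 0.11 (SE 0.09, 95% interval -0.07 to 0.30) had an adjusted p of 0.642 (DESeq2). An antisense gene, *Gm17110*, overlaps *Bmpr1a*.

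The receptor-regulated SMADs carry the signal from the receptor to the nucleus. *Smad1* (chromosome 8, 79338395 to 79399518, minus strand) had 408, 460 and 383 normalized counts in the WT libraries, against 574, 615 and 605 in KO. All 3 KO libraries were higher than all WT libraries, and those of KO lay closer together, around a mean of 598 ± 21.5 beside 417 ± 39.3 for WT (SD, n = 3). The log2 fold change was 0.51 (SE 0.13, 95% interval 0.25 to 0.76), with an adjusted p of 0.00330 (DESeq2). It no longer passed without WT replicate 1 (adjusted p 0.0620) or KO replicate 2 (0.0762), with log2 fold changes of 0.48 and 0.49.

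*Smad5* (chromosome 13, 56703010 to 56742377, plus strand), which acts in parallel with *Smad1*, had 1192, 1230.1 and 1394 normalized counts in WT, against 1436, 1406 and 1535 in KO. Its libraries did not overlap between genotypes either, but the step was smaller. The log2 fold change was 0.20 (SE 0.11, 95% interval -0.010 to 0.41), with an adjusted p of 0.330 (DESeq2). *Smad5* overlaps *Gm27301*, *Gm27834* and *Gm27271* on the same strand, and whether they bear on its counts was not tested. Within each library, *Smad1* counts were 0.342, 0.374 and 0.275 of those of *Smad5* in WT and 0.400, 0.438 and 0.394 in KO. This ratio, which does not depend on the size factors, was 1.25-fold higher in KO and did not overlap between genotypes. Its log2 difference of 0.32 ran from 0.20, without WT replicate 3, to 0.42, without WT replicate 2. An exact two-sided permutation test gave 0.1, the smallest p that 3 against 3 libraries allow. Ratios that do not overlap always give this p, and the test left the pairs of libraries out. The ratio was looked at after the values of both genes had been seen.

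The inhibitory SMADs bind receptors and SMAD complexes and end the signal. *Smad6* (chromosome 9, 63953076 to 64022059, minus strand) was lowly expressed, with 78.9, 102 and 139.6 normalized counts in WT, against 111, 112 and 89.85 in KO. The KO values fell inside the WT range, and the pairs went both ways. The KO mean of 104 was slightly below the WT mean of 107, while the fitted log2 fold change was 0.043 (SE 0.25, 95% interval -0.45 to 0.54, adjusted p 0.967, DESeq2). *Smad7* (chromosome 18, 75367529 to 75395935, plus strand) was far more abundant, with 1339, 1584 and 2442 in WT and 1839.8, 1589 and 2434 in KO.

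Replicate 3, the shallow pair, was the highest *Smad7* library of both genotypes, and the KO and WT values of replicates 2 and 3 were nearly equal. The log2 fold change of *Smad7* was 0.13 (SE 0.32, 95% interval -0.49 to 0.75, adjusted p 0.916, DESeq2). With the replicate block, which takes up the difference between the pairs, it was 0.16 (SE 0.09, 95% interval -0.03 to 0.34, adjusted p 0.303). Without WT replicate 3 and with no block it was 0.41 (SE 0.16, adjusted p 0.0959). For *Smad6* the block did not narrow the interval (-0.45 to 0.57). Whether the depth or the ribosomal share of replicate 3 bears on its *Smad7* level was not tested.

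The *Id* genes, targets of SMAD1 and SMAD5, did not all lean the same way. *Id1* (chromosome 2, 152736251 to 152737410, plus strand) had 343, 405 and 498 normalized counts in the WT libraries, against 591, 669.6 and 706 in KO. The lowest KO library was above the highest WT library, and replicate 1 was the lowest library in both. The mean went from 415 ± 78.4 to 655 ± 58.7 (SD, n = 3), and the log2 fold change was 0.68 (SE 0.15, 95% interval 0.38 to 0.98), with an adjusted p of 0.000487 (DESeq2). *Id1* passed in each of the 13 other fits, where its log2 fold change lay between 0.55 and 0.80 and its adjusted p between 2.02e-07 and 0.0321.

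*Id3* (chromosome 4, 136143497 to 136145755, plus strand) leaned the other way. It had 1019, 939 and 1166 normalized counts in the WT libraries, against 910.3, 689 and 1017 in KO. Each KO library was below the WT library of its number, yet the genotypes overlapped, since KO replicate 3 was above WT replicate 2. The log2 fold change was -0.26 (SE 0.15, 95% interval -0.56 to 0.036), with an adjusted p of 0.393 (DESeq2), and with the replicate block the adjusted p was 0.0367. It passed in no other alternative, and leaving out 1 library moved the log2 fold change from -0.37 (KO replicate 3) to -0.11 (KO replicate 2, adjusted p 0.931).

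*Id1* counts within a library were 0.336, 0.431 and 0.427 of *Id3* counts in WT and 0.649, 0.972 and 0.694 in KO. The KO ratios were all above the WT ratios, 1.92-fold in the mean of logs. An exact two-sided permutation test again gave 0.1, the smallest p the design allows, and this ratio too was chosen after the values had been seen. That p follows from the lack of overlap alone, and the test left the pairs of libraries out. Leaving out any 1 library moved the log2 difference of 0.94 between 0.76 and 1.05.

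**Figure D2:**
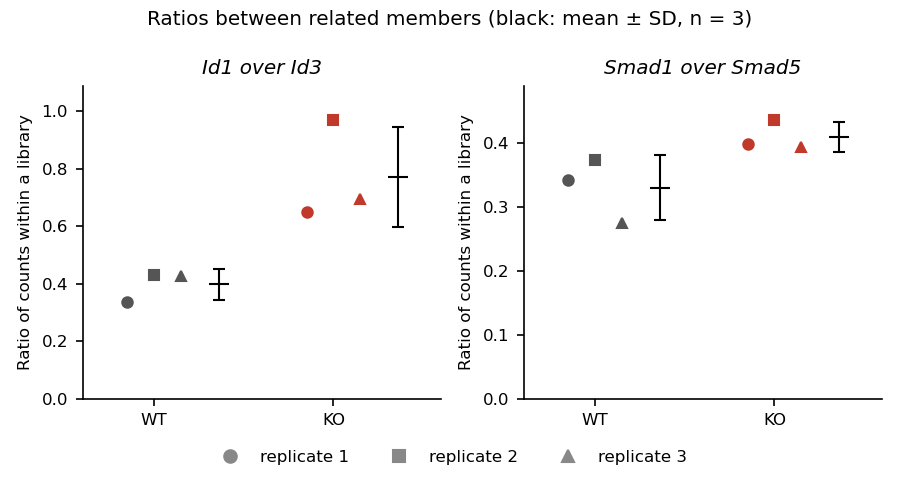
Ratio of counts within each library (y axis, from 0) of *Id1* over *Id3* and of *Smad1* over *Smad5*, in WT (grey) and KO (red), with the mean ± SD in black (n = 3). Both ratios are higher in all 3 KO libraries than in any WT library, 0.649 to 0.972 against 0.336 to 0.431 for *Id1* over *Id3*.

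*Id2* (chromosome 12, 25093799 to 25097140, minus strand) had 92.1, 94.6 and 134 normalized counts in the WT libraries, against 92.0, 106 and 129 in KO, ranges that nearly coincide. Its log2 fold change was 0.041 (SE 0.24, 95% interval -0.43 to 0.52, adjusted p 0.966, DESeq2). *Id4* (chromosome 13, 48261228 to 48266026, plus strand) was the lowest of the family, with 24.0, 45.2 and 63.0 in WT and 23.7, 26.7 and 37.0 in KO. WT and KO replicate 1 were equal to within 1 normalized count, and the gap came from the other pairs. The log2 fold change of *Id4* was -0.58 (SE 0.42, 95% interval -1.40 to 0.24, adjusted p 0.563, DESeq2), leaving out 1 library moved it between -0.92 and -0.30, and at this level neither a large fall nor no change can be told from the counts. *Id4* also overlaps *A330033J07Rik* and *Gm49291* on the opposite strand.

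**Figure D3:**
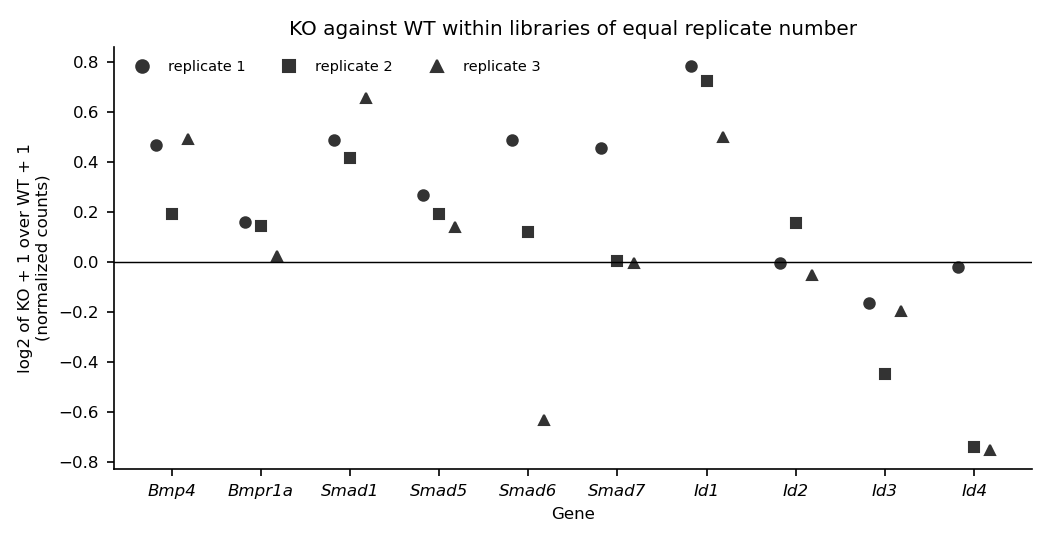
Log2 of the KO over the WT normalized count, each plus 1 (y axis), for each gene within libraries of equal replicate number (symbols). All 3 pairs are above 0 for 5 genes (*Bmp4*, *Bmpr1a*, *Smad1*, *Smad5* and *Id1*) and below 0 for 2 (*Id3* and *Id4*), and the signs are mixed for *Smad6*, *Smad7* and *Id2*.

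Levels were then put on a common scale of normalized counts per kb of annotated exon, so that genes of different length could be ordered. In WT, *Id3* came first with 582 ± 64.4 per kb, followed by *Smad7* (396 ± 128), *Bmp4* (393 ± 48.9), *Id1* (358 ± 67.6) and *Bmpr1a* (324 ± 12.3). From *Id3* to *Bmpr1a* the library ranges of each gene and the next overlapped. Within each WT library *Id3* was nevertheless above the other 4, and the order among those 4 is not resolved. *Smad5* (171 ± 14.4) and *Smad1* (66.6 ± 6.28) lay below without overlap, then *Id2* (43.9 ± 9.68) and *Smad6* (33.4 ± 9.55), whose ranges overlapped although *Id2* was the higher in each library, and last *Id4* (11.4 ± 5.07). The RNA of *Bmpr1a* was thus at a higher level per kb than that of *Smad5* or *Smad1*, and protein was not measured.

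In KO, *Id1* (565 ± 50.6 per kb), *Bmp4* (518 ± 102), *Id3* (487 ± 93.5) and *Smad7* (432 ± 96.0) shared the top of the order, each overlapping the next, and *Smad7* overlapped *Bmpr1a* (349.7 ± 10.3). The ranks from *Bmpr1a* to *Id4* were those of WT, here with no overlap between any neighbours. *Id1* went from rank 4 in WT to rank 1 in KO. With the longest transcript of each gene as its length, *Id3* kept rank 1 in KO and *Id1* had rank 2. *Smad1* then had 110.6 per kb in WT and 158.4 in KO, at rank 7 in both as before. These are levels per annotated length, and transcripts in use may be shorter.

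**Figure D4:**
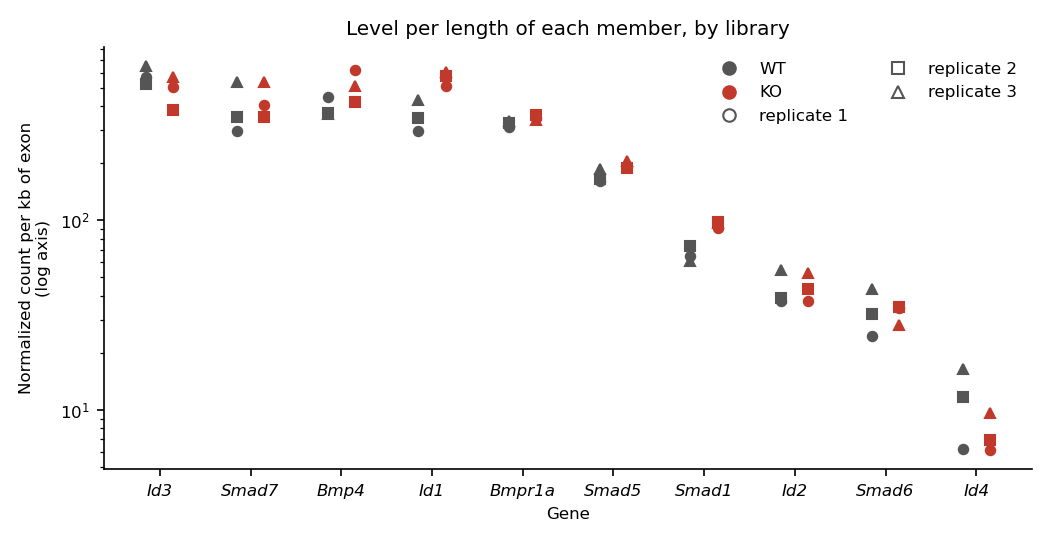
Normalized counts per kb of exon (y axis, log scale) of the 10 genes, ordered by their WT mean, in WT (grey) and KO (red) libraries with symbols for the replicate number. Each of the first 4 genes overlaps the next in WT, and *Id4* lies lowest in both genotypes.

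The remainder of the pathway was read from a list of 70 genes chosen by role. An adjusted p was obtained for 53 of them, and 4 passed, 1 higher and 3 lower in KO, beside 7.50% of all genes tested. The other 17 had too few counts, and 11 of the 70 had at most 3 counts in every library, among them the ligands *Bmp5*, *Bmp10*, *Gdf1*, *Gdf2* and *Gdf6*. The median log2 fold change of the 53 was 0.049. With the replicate block 6 passed, the same 4 with *Map3k7* and *Dusp9* higher, beside 14.7% of all genes in that fit. The count was 0 when KO replicate 1 or KO replicate 2 was left out, 1 when WT replicate 1 or WT replicate 2 was, and 2 when KO replicate 3 was (DESeq2), with 5 to 12 genes at an unadjusted p under 0.05 in these fits.

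Of 14 other ligands, 5 could be tested and 0 passed. *Gdf3*, a ligand of the Nodal branch and by far the most abundant of these genes in counts, had 5483 ± 1006 normalized counts in WT, against 5069 ± 629 in KO (log2 fold change -0.11, 95% interval -0.39 to 0.16, adjusted p 0.799, DESeq2). *Bmp7* averaged 74.6 and 96.9 normalized counts (log2 fold change 0.35, 95% interval -0.20 to 0.90, adjusted p 0.618). *Bmp2*, a ligand close to *Bmp4*, was too low to test.

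Among 9 other receptors and co-receptors, 1 rose and 1 fell. *Acvrl1*, the type I receptor ALK1, had 13.7, 50.8 and 19.2 normalized counts in the WT libraries, against 74.5, 68.8 and 74.0 in KO, with the KO libraries all above WT (log2 fold change 1.32, SE 0.42, adjusted p 0.0291, DESeq2). WT replicate 2 stood apart from the other WT libraries. Without it the log2 fold change was 2.24 (adjusted p 7.42e-05), and without any other single library it did not pass (adjusted p 0.0730 to 0.340). It also failed to pass with edgeR (0.109).

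*Eng*, which encodes the co-receptor endoglin, had 321, 400.4 and 394 normalized counts in the WT libraries, against 265, 234 and 277 in KO. All KO libraries were below all WT libraries (log2 fold change -0.53, SE 0.16, adjusted p 0.0186, DESeq2). The adjusted p was 0.235 when WT replicate 2 was left out, and 0.118 and 0.248 when KO replicate 1 and KO replicate 2 were. *Acvr2a*, a type II receptor, had a log2 fold change of 0.16 (95% interval -0.11 to 0.43, adjusted p 0.674).

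Of 17 extracellular antagonists and modulators, 11 were tested, and 1 fell. *Fstl1*, which encodes a secreted follistatin-like protein, went from 1509.6 ± 51.6 to 1175 ± 96.4 normalized counts (SD, n = 3). Its log2 fold change of -0.37 (SE 0.11) had an adjusted p of 0.0122 (DESeq2). Leaving out WT replicate 1 or 2 gave an adjusted p of 0.0659 and 0.0954, and leaving out KO replicate 1 or 2 gave 0.204 and 0.145. *Twsg1*, a BMP-binding protein, had a log2 fold change of -0.12 (95% interval -0.37 to 0.14, adjusted p 0.773). *Nog* and *Chrd*, the classical BMP antagonists, were low, with 11.2 and 33.7 normalized counts in WT, and did not pass (adjusted p 0.817 and 0.501).

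Of the 4 other SMADs, 0 passed in the DESeq2 fit. *Smad4*, the shared partner of SMAD1 and SMAD5, had 1459.5 ± 56.5 and 1522 ± 41.3 normalized counts (log2 fold change 0.058, 95% interval -0.14 to 0.25, adjusted p 0.872, DESeq2). *Smad2*, which serves Nodal and activin, had a log2 fold change of -0.14 (95% interval -0.35 to 0.075, adjusted p 0.617). *Smad9*, the remaining receptor-regulated SMAD of the BMP branch, was low, with 46.4 ± 6.50 normalized counts in WT, against 28.4 ± 3.35 in KO (log2 fold change -0.74, 95% interval -1.43 to -0.04, adjusted p 0.247). Its libraries did not overlap, but it is not among the genes named by rule and was picked after its values were seen.

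Of 14 intracellular regulators 1 fell, *Smurf2*, a ubiquitin ligase that acts on receptors and SMADs. It went from 1089.9 ± 79.2 to 866 ± 10.8 normalized counts (log2 fold change -0.34, SE 0.11, adjusted p 0.0330, DESeq2). *Smurf2* lies on chromosome 11, where the median of 915 genes was -0.26 on the log2 scale and 91.0% of them were on the lower side in KO, against medians between 0.00092 and 0.064 on the other 18 autosomes. The *Smurf2* log2 fold change minus that median was -0.07. It did not pass in the fits without WT replicate 1 or 2 or without KO replicate 1, 2 or 3 (adjusted p 0.0851 to 0.287). *Fkbp1a* and *Map3k7*, which encode a receptor-binding protein and the kinase TAK1, were the most abundant of this role. Their log2 fold changes were 0.13 (95% interval -0.11 to 0.37) and 0.20 (95% interval 0.0100 to 0.38), and *Map3k7* had an adjusted p of 0.248, or 0.0405 with the replicate block. None of the 10 genes lies on chromosome 11 or X.

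Of 9 further BMP targets 7 were tested and 0 passed in the DESeq2 fit. *Dusp9*, a phosphatase gene that BMP induces in ESCs, had 2842 ± 317 normalized counts in WT, against 3415 ± 358 in KO (log2 fold change 0.26, 95% interval 0.03 to 0.50, adjusted p 0.192, and 0.000666 with the replicate block). It lies on chromosome X, where the median log2 fold change of 393 genes was 0.18, and its own log2 fold change minus that median was 0.08. *Tbx3* had a log2 fold change of 0.11 (95% interval -0.14 to 0.35, adjusted p 0.783). The 3 E protein genes, whose products ID proteins bind, did not pass either. *Tcf3* and *Tcf4* had log2 fold changes of -0.08 (95% interval -0.30 to 0.14) and -0.021 (95% interval -0.23 to 0.18).

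**Figure D5:**
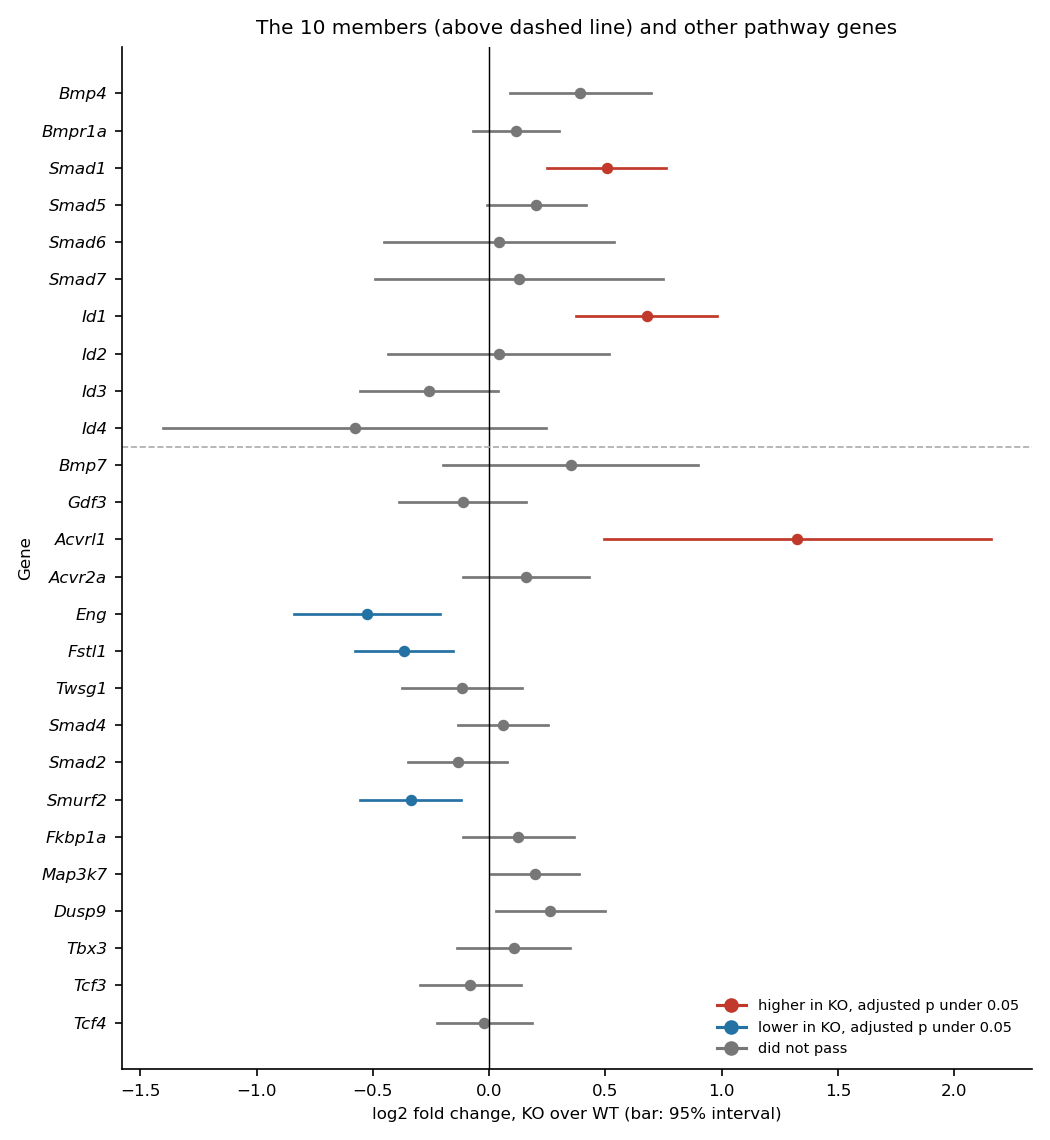
Log2 fold change of KO over WT (x axis) with its 95% interval for the 10 genes (above the dashed line) and, below it, the pathway genes that passed and those most abundant in each role. Red marks genes higher and blue genes lower in KO at an adjusted p of 0.05; *Smad1*, *Id1* and *Acvrl1* are red, and *Eng*, *Fstl1* and *Smurf2* blue.

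Markers of other cells that an ESC culture can hold were read beside these results. In bulk RNA, a change in the number of cells of a type and a change of RNA per cell cannot be told apart. The 7 fibroblast markers summed to between 271 and 316 normalized counts in WT and between 338 and 402 in KO, with *Thy1* and *Twist1* higher. *Col1a1*, *Col1a2* and *Pdgfrb* were at 79.4%, 59.9% and 88.6% of WT and did not pass, and *Col3a1* and *Postn* had 3 or fewer counts in every library. The 6 primitive endoderm markers summed to 106 to 159 in WT and 149 to 206 in KO, with *Dab2* higher. *Gata4*, *Gata6*, *Sox17* and *Sox7* were at 90.2%, 98.8%, 48.8% and 98.3% of WT and did not pass. *Foxa2* had 0 counts in each WT library and 22, 7 and 2 in KO, too few for an adjusted p. Of the 5 trophoblast markers *Tfap2c* was higher and *Cdx2* lower. The 5 summed to 1048 to 1204 in WT and 1091 to 1242 in KO. Of 4 primitive streak markers, *T* and *Mixl1* did not pass, and *Mesp1* and *Fgf8* had too few counts for an adjusted p. The part of such cells in the rise of *Id1* and *Smad1* was not tested.

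For each of the 2 genes that passed, the most similar profiles over the 6 libraries were looked up among 11521 other genes by Pearson's r of log2(normalized count + 1). *Id1* was closest to *Mageh1* (r 0.998), *Slc30a4* (0.997) and *Bex1* (0.997). *Smad1* was closest to *Gramd1a* (0.997), *Socs5* (0.996) and *C330027C09Rik* (0.995). The 9 genes with a mean of at least 50, all but *Id4*, were also compared. Of these, *Id1* followed *Smad5* most closely (r 0.946) and *Smad1* followed *Id1* (0.819). The r of *Id3* was negative with *Id1* (-0.398) and with *Smad1* (-0.690). Within each genotype, however, replicate 3 was the highest library of both *Id1* and *Id3*. These r values describe 6 libraries that share genotype and replicate number.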

How the data were processed

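Total RNA from 3 WT and 3 *Patz1* KO ESC libraries was depleted of ribosomal RNA and sequenced as stranded libraries. The authors mapped reads to mm10, and the deposited files hold unnormalized read counts for each gene symbol, 1 file per library. The submitters' processing notes name TopHat2 (2.1.1), Bowtie2 (2.3.1.0) and featureCounts (1.6.2). The annotation and the strand setting were not given in the sources used here.

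Genes with a count in at least 1 library (19404) were fitted with DESeq2, using the Wald test and the FDR of 0.05 that the study states. The version (1.42.0), the gene filter, the model of genotype alone and default independent filtering at 0.1 were set here. Alternatives were edgeR (4.0.16, quasi-likelihood, robust), limma-voom (limma 3.58.1), TMM size factors, a minimum of 10 counts in 3 libraries, no independent filtering, the replicate block, and leaving out libraries. The code was tested on simulated data. Positions and exon lengths are from GENCODE M21. Members and lists were chosen with earlier results of these data known. Named are the 10 genes, pathway genes that passed and the 2 most abundant in each role, and *Patz1*; the ESC markers are given as a sum, and others were named after their values were seen.

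Same-numbered WT and KO libraries deviated together over 11524 genes (correlations 0.469, 0.619 and 0.684), so the shared numbers in the titles were taken as pairs. The main fit does not use these pairs, and the block fit does. Each of 15 pairs of libraries differed by more than sampling noise (chi-square over its degrees of freedom at least 9.50). A count of 3 equals 1.69 to 8.21 normalized counts, and covers counting error only.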

Additional observations from a re-analysis of the deposited data

How the results depend on the processing

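*Id1* and *Smad1* passed with edgeR, limma-voom, TMM size factors, the count filter, no independent filtering, the replicate block and without both replicate 3 libraries. The block gave 2132 genes over all (1145 without it) and 4 of the 10 members, and made *Bmp4*, *Id3*, *Map3k7* and *Dusp9* pass; it changed no other call among the named genes, and the cause was not tested. Without 1 library, with fewer samples, 583 to 1328 genes passed over all, 1 to 2 of the 10 members and 0 to 4 of the pathway list. The 0 came without KO replicate 1 or 2, with 7 and 6 list genes at an unadjusted p under 0.05 (DESeq2), and edgeR on all libraries called 3. Signs turned among such fits for genes near 0: *Smad6* from -0.15 to 0.23, *Smad7* from -0.054 to 0.41, *Id2* from -0.062 to 0.18, *Gdf3* from -0.24 to 0.023 and *Tcf4* from -0.066 to 0.018. *Patz1* passed in all 13 alternatives (-1.16 to -1.10). Without chromosome 11 and X, 3 list genes passed. At the depth of replicate 3, *Id4* rests on few reads. With the longest transcript as length, the level per kb of *Bmpr1a*, *Smad1*, *Smad5*, *Id2* and *Id3* moved by more than 1 SD in both genotypes.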
